A study of Mirounga angustirostris with 8 samples.

Results

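The genes described here code for enzymes that clear superoxide and peroxides: the superoxide dismutases SOD1, SOD2 and SOD3, the catalase CAT, the glutathione peroxidases GPX1, GPX3 and GPX4, and the peroxiredoxins PRDX3, PRDX5 and PRDX6. They were chosen by gene symbol, and all 10 were found among the 24338 genes of the read-count table. All 10 also passed the filter on low counts, with 14312 genes tested in all.

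Superoxide leaks from the respiratory chain and from oxidases, and superoxide dismutases turn it into hydrogen peroxide. Catalase, glutathione peroxidases and peroxiredoxins then reduce the peroxide, the last of these families mostly with thioredoxin as reductant and the glutathione peroxidases with glutathione. Working muscle makes much superoxide and peroxide, and diving seals add cycles of low oxygen and reoxygenation, so these enzymes are a common subject of marine mammal physiology.

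RNA came from the longissimus dorsi, the long back muscle, of wild adult female northern elephant seals (Mirounga angustirostris, NES) hauled out for the annual molt, a period ashore with no food and little activity. Pre-molt (early molt) libraries were from seals 5572, 5842, 6762 and C497, biopsied at most 5 days after they came ashore, and post-molt (late molt) libraries from seals 4448, 5572, 9678 and X410, biopsied on average 34 days later than the first visit. All animals were sedated with Telazol, ketamine and diazepam for the biopsy, so no group is free of these drugs, and no group was ashore without fasting and molting, so time ashore, fasting, inactivity and molt cannot be told apart. Seal 5572 alone contributed to both groups, which were compared unpaired. Libraries held 37897904 to 56137977 counts pre-molt and 30769570 to 61216192 post-molt. The muscle marker with the most reads over all 8 libraries, the oxygen carrier myoglobin (MB), was at 69213 ± 18787 CPM pre-molt and 110486 ± 17556 post-molt (SD, n = 4 each), where CPM is counts per 1000000. Of 13 muscle markers 10 were found and tested (the myosin symbols MYH7, MYH2 and MYH1 were not), and edgeR called 0 of them. At an unadjusted edgeR p under 0.05 MB was higher (against 5.2% of all genes) and ACTA1, CKM, TNNT3 and MYL1 lower (against 6.22%). DESeq2 called MB higher (against 3.31% of the genes it tested) and ACTA1 lower (against 3.13%). The groups overlapped in all of these but ACTA1, whose post-molt libraries lay all below, as in 5.11% of all genes. TNNT3 (1757 ± 2042 and 234 ± 158 CPM) and MYL1 (904 ± 1006 and 152 ± 86.4 CPM) varied widely pre-molt. In seal 5572 both were higher post-molt, by 3.29 and 0.62 on the log2 scale. CPM values were scaled with TMM factors (trimmed mean of M values, which adjust library size for a few very abundant genes). The values are not divided by transcript length, so the level of a gene is compared between libraries only. Where a marker is called the most abundant of its list, this is by CPM over all 8 libraries, without regard to length.

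SOD2 was the member that differed most clearly, with higher levels in post-molt muscle. None of the 10 genes passed the edgeR test over all genes at an adjusted p under 0.05, neither higher (0 of 10, against 0.217% of all genes tested) nor lower (0 of 10, against 0.133%). At an unadjusted p under 0.05, 1 was higher (SOD2, against 5.2% of all genes) and 0 were lower (against 6.22%). DESeq2, the tool named in the study's methods, gave an adjusted p to 9 of the 10 and called SOD2 higher (against 3.31% of the genes it tested) and 0 lower (against 3.13%). The study's methods also set a log2 fold change of 1 either way, which SOD2 (0.59 in DESeq2) did not reach. Limma-voom called 0 higher (against 0.384%) and 0 lower (against 0.272%). In SOD2 the 4 post-molt libraries lay above all 4 pre-molt libraries (against 4.05% of all genes), no member had the 4 post-molt libraries below (against 5.11%), and the groups overlapped in the other 9. Of the fold changes 4 were positive and 6 negative, with a median log2 fold change of -0.11, beside -0.04 over all genes tested.

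**Figure D1:**
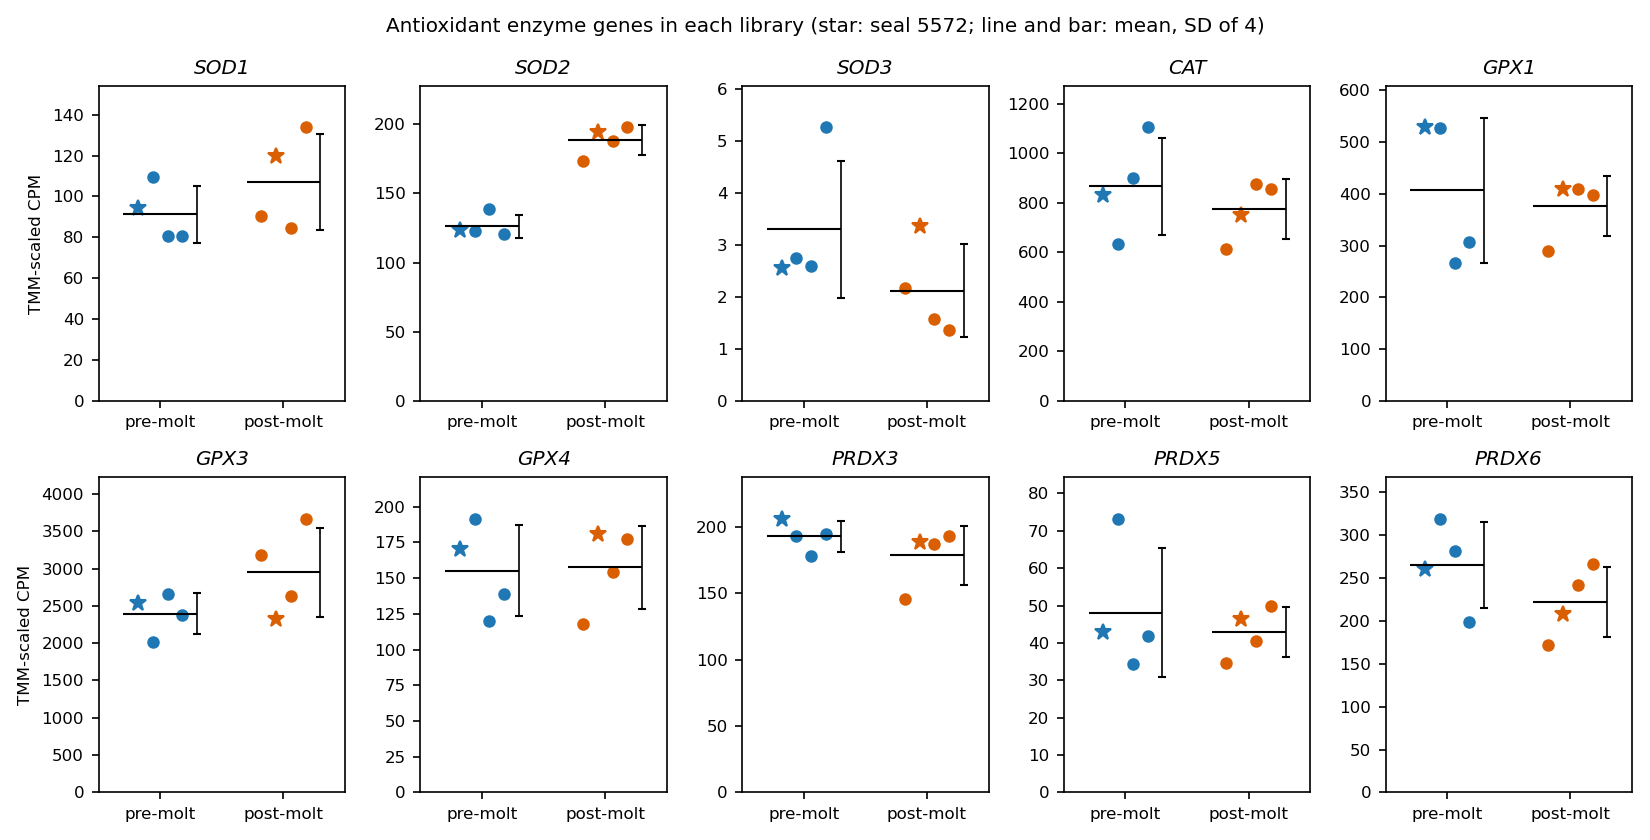
TMM-scaled CPM (y axes, from 0, a different scale for each gene) of the 10 antioxidant enzyme genes in 4 pre-molt and 4 post-molt libraries. Each dot is 1 library, the star is seal 5572, lines are means and bars SD; the post-molt dots of SOD2 sit at 174 to 198, above the pre-molt dots at 120.4 to 139, and the groups overlap in the other panels.

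SOD2 is the manganese superoxide dismutase of the mitochondrial matrix, where it meets superoxide from the respiratory chain. Pre-molt libraries had 120.4 CPM (C497), 123 (5842), 123 (5572) and 139 (6762). Post-molt libraries had 174 (4448), 188 (9678), 194 (5572) and 198 (X410). Within each group the libraries were close together, with a coefficient of variation (SD over mean) of 6.64% pre-molt and 5.67% post-molt, where the median gene tested had 33.4% and 32.3%. SOD2 had 3910 to 12125 counts a library, whereas the medians cover genes of all depths, so genes of like depth were not compared. The mean went from 126 ± 8.39 to 189 ± 10.7 CPM (SD, n = 4 each), a fold of 1.49 with a 95% interval of 1.17 to 1.91. On the log2 scale the difference was 0.58 ± 0.16 (SE) with an unadjusted edgeR p of 0.00386, rank 371 of the genes tested, and an edgeR adjusted p of 0.148. DESeq2 gave 0.59 ± 0.12 with an adjusted p of 0.000234, and limma-voom an adjusted p of 0.123. The edgeR and DESeq2 calls therefore differed for this gene. With each library left out in turn, the edgeR log2 fold change stayed between 0.56 and 0.63, and DESeq2 called SOD2 in 8 of 8 fits with an adjusted p of 0.000269 to 0.0205. The DESeq2 fits with libraries left out were run for SOD2 alone, after the data were seen. They share most of their libraries, so they are not separate support. Without both libraries of seal 5572 the DESeq2 adjusted p was 0.135, and it was 0.0485 without pre-molt 5842 and post-molt 9678, which had the smallest uniquely mapped share of their groups. Over the 18 alternatives to the edgeR fit, the adjusted p of SOD2 ran from 0.000234 to 0.487. In seal 5572 itself SOD2 was higher post-molt by 0.65 on the log2 scale. In bulk tissue, more cells that express a gene and more RNA per cell cannot be told apart.

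Other mitochondrial genes were also measured, most of them of the matrix. Their list also holds the subunits of succinate dehydrogenase, a complex of the inner membrane. Of these 23 genes, among them citrate synthase, the citric acid cycle enzymes and chaperones, edgeR and DESeq2 called 0. At an edgeR p under 0.05 before adjustment 0 were higher (against 5.2% of all genes) and 1 lower (against 6.22%). Their log2 fold changes ran from -0.57 to 0.39 with a median of -0.17, so the SOD2 value of 0.58 lay above each of them. SDHB, the iron-sulfur subunit of succinate dehydrogenase, was the gene of this list that stood first by p (192 ± 25.7 CPM pre-molt, 142 ± 25.8 post-molt, log2 difference -0.44 ± 0.20, edgeR adjusted p = 0.415). MDH2, malate dehydrogenase, came next (-0.51 ± 0.26, edgeR adjusted p = 0.496). SOD2 is also known as a gene that inflammatory signals raise, and markers of macrophages and neutrophils were sparse: the 14 of 16 markers found, the lysozyme gene LYZ the most abundant, summed to 26.9 to 84.5 CPM pre-molt and 33.6 to 126 post-molt, with 0 of 13 tested called by edgeR and 0 at an unadjusted edgeR p under 0.05. DESeq2 called 0 of the 6 to which it gave an adjusted p. Of the 13 log2 fold changes 7 were positive and 6 negative, with a range of -1.77 to 2.15 and a median of 0.0049. LYZ ran from 4.98 to 33.6 CPM pre-molt and from 8.97 to 31.9 post-molt. The highest of the 13 fold changes was that of CD68. The macrophage marker CD68, with no DESeq2 adjusted p, was at 0, 0.487, 1.05 and 1.69 CPM pre-molt (5842, C497, 6762 and 5572) and at 1.69, 1.96, 4.55 and 6.16 post-molt (4448, X410, 9678 and 5572). Its post-molt libraries all lay above its pre-molt libraries, as for SOD2 and 4.05% of all genes. For CD68 the highest pre-molt and lowest post-molt library nearly met (log2 difference 2.15 ± 1.08, edgeR adjusted p = 0.504, DESeq2 unadjusted p = 0.0234). The part of these cells in the SOD2 values was not tested.

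SOD1 is the copper and zinc superoxide dismutase of the cytosol. It stood at 80.4 CPM (C497), 80.5 (6762), 94.2 (5572) and 109.7 (5842) pre-molt, and at 84.5 (9678), 90.3 (4448), 119.5 (5572) and 134 (X410) post-molt. The lower post-molt pair fell inside the pre-molt range and the upper pair above it. The log2 difference was 0.23 ± 0.20 (95% interval -0.21 to 0.68, edgeR adjusted p = 0.771). It was 0.11 without post-molt X410 and 0.36 without pre-molt 5842.

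SOD3 is the secreted dismutase, held in the matrix around cells and vessels. It was read from 49 to 314 counts a library, by far the thinnest depth of the 10. The pre-molt values were 2.57 CPM (5572), 2.60 (6762), 2.76 (5842) and 5.27 (C497). The post-molt values were 1.37 (X410), 1.58 (9678), 2.18 (4448) and 3.36 (5572). Of the post-molt libraries 3 lay below every pre-molt library, and seal 5572 lay above 3 of the 4. The log2 difference of -0.64 ± 0.60 had the widest interval of the 10 (-1.94 to 0.67, adjusted p = 0.792), and was -0.31 without pre-molt C497. Fibroblasts are among the cells that secrete this enzyme, and the 14 fibroblast markers had a median log2 fold change of -1.40. EdgeR called 0 of them. Before adjustment (p under 0.05) 7 were lower (against 6.22% of all genes) and 0 higher (against 5.2%). DESeq2, which gave 2 of the 14 no adjusted p, called COL1A2, LUM, PCOLCE, PI16 and THY1 lower (against 3.13% of the genes it tested). GSN, which codes for the actin-severing protein gelsolin, was the most abundant of them and the 1 marker with a positive value (569.9 ± 193 and 774 ± 40.4 CPM, log2 0.44 ± 0.23, edgeR adjusted p = 0.535). The 14 markers summed to 873 to 2385 CPM pre-molt and 1017 to 1245 post-molt. Without GSN the other 13 summed to 473 (6762), 534 (5572), 692 (C497) and 1537 (5842) pre-molt and to 209 (4448), 257 (9678), 281 (5572) and 501 (X410) post-molt, so that 3 of the 4 post-molt libraries lay below every pre-molt library. Vessel cells secrete it too. Of 12 endothelial markers, with VWF the most abundant (227 ± 45.0 and 192 ± 36.3 CPM), edgeR called 0. KDR alone was lower before adjustment and in DESeq2, where the shares of all genes are those given for the fibroblast markers. Of 10 smooth muscle and pericyte markers edgeR and DESeq2 called 0 and none had an unadjusted p under 0.05. The most abundant of them, DES, is also among the muscle fibre markers, so its level does not single out vessel cells. The part of these cells in the SOD3 values was not tested.

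CAT, catalase, breaks down hydrogen peroxide in peroxisomes. Pre-molt libraries had 633 CPM (5842), 830.4 (5572), 899.6 (6762) and 1106 (C497), and post-molt libraries 612 (4448), 751 (5572), 856 (X410) and 877 (9678). Post-molt 4448 lay just under the lowest pre-molt library, and the other post-molt libraries lay inside the pre-molt range. The log2 difference was -0.16 ± 0.22 (95% interval -0.64 to 0.31, edgeR adjusted p = 0.867), and -0.27 without pre-molt 5842, -0.063 without post-molt 4448 and -0.023 without pre-molt C497. Red blood cells hold much catalase. Of 18 red cell markers, 13 were found and 5 tested, with SLC4A1, the anion exchanger of the red cell membrane, and HEMGN at 0 in all libraries, and with 0 called by edgeR or DESeq2 and 0 at an unadjusted p under 0.05. The hemoglobin symbols HBA1, HBA2, HBB and HBD were not found. The globin genes HBQ1 and HBM were, HBM with too few reads to be tested. HBQ1 was at 8.35 ± 8.53 CPM pre-molt and 15.7 ± 14.9 post-molt (log2 difference 0.91 ± 0.86, edgeR adjusted p = 0.791). Of the 5 log2 fold changes of tested markers 2 were positive and 3 negative. The most abundant marker found was the spectrin gene SPTB, which muscle also expresses (163 ± 44.8 and 152 ± 37.9 CPM), and the part of red cells in the CAT values was not tested.

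The glutathione peroxidases GPX1, GPX3 and GPX4 are selenoproteins. GPX1 is the main cytosolic form. Its pre-molt libraries split into a low pair, 266 CPM (6762) and 307 (C497), and a high pair, 526 (5842) and 529 (5572). The post-molt libraries lay between these pairs or inside the low one, with 289 (4448), 397 (X410), 408 (9678) and 409 (5572). The log2 difference of -0.12 ± 0.25 (95% interval -0.67 to 0.44, edgeR adjusted p = 0.930) turned to 0.028 without pre-molt 5572 and to 0.057 without pre-molt 5842. It was -0.0046 without post-molt 4448, -0.27 without pre-molt 6762 and -0.23 without C497.

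GPX3 is the form secreted into plasma. Its levels were 2021 CPM (5842), 2371 (C497), 2538 (5572) and 2654 (6762) pre-molt, and 2319 (5572), 2631 (9678), 3181 (4448) and 3669 (X410) post-molt. Post-molt 4448 and X410 lay above every pre-molt library and the other post-molt libraries inside the pre-molt range. The mean went from 2396 ± 276 to 2949.7 ± 597 CPM, a fold of 1.23 with a 95% interval of 0.90 to 1.68 (log2 0.30 ± 0.21, edgeR adjusted p = 0.670, DESeq2 adjusted p = 0.374). Without post-molt X410 the log2 difference was 0.18. Seal 5572 differed from the means, with a difference of -0.13 on the log2 scale. Fat is a known source of GPX3, and 13 of 14 adipocyte markers found in the table summed to 965 to 1224 CPM pre-molt and 642 to 1202 post-molt, with a median log2 fold change of -0.54 over the 11 tested. The most abundant was the lipase LPL (708 ± 24.0 and 639.6 ± 195 CPM), followed by PLIN4 (162 and 279.7 CPM). These genes made up most of the sum, and whether their reads came from fat cells was not tested. ADIPOQ, PLIN1 and CIDEC were far lower, with means of 15.98, 4.66 and 26.3 CPM pre-molt and 6.27, 2.36 and 5.38 post-molt. EdgeR called 0 of the 11. Before adjustment PLIN4 was higher (against 5.2% of all genes) and CIDEC lower (against 6.22%), and DESeq2 called CIDEC lower (against 3.13%). Their part in the GPX3 values was not tested.

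GPX4 reduces lipid peroxides inside membranes and is known for its role against ferroptosis. Pre-molt libraries had 120.3 CPM (6762), 139 (C497), 170.2 (5572) and 192 (5842), and post-molt libraries 118 (4448), 154 (9678), 177 (X410) and 181 (5572). The groups covered nearly the same range. The means of 155 ± 31.8 and 158 ± 29.2 CPM gave the log2 difference nearest to 0 among the 10 genes (0.021 ± 0.21, 95% interval -0.44 to 0.48, edgeR adjusted p = 0.987).

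PRDX3 is the peroxiredoxin of the mitochondrial matrix and shares that compartment with SOD2. Pre-molt libraries had 178 CPM (6762), 193 (5842), 194 (C497) and 206 (5572). Post-molt libraries had 146 (4448), 187 (9678), 188 (5572) and 193 (X410). Apart from post-molt 4448, below all others, the 7 libraries lay within 178 to 206 CPM. The log2 difference was -0.11 ± 0.17 (95% interval -0.49 to 0.27, edgeR adjusted p = 0.893) and -0.021 without 4448.

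PRDX5, found in mitochondria, peroxisomes and cytosol, was at 34.4 (6762), 41.8 (C497), 42.8 (5572) and 73.3 CPM (5842) pre-molt, and at 34.7 (4448), 40.5 (9678), 46.5 (5572) and 49.9 (X410) post-molt. Pre-molt 5842 stood above the other 7 libraries, and post-molt 5572 and X410 stood above the remaining pre-molt libraries. The log2 difference was -0.16 ± 0.25 (95% interval -0.70 to 0.37, edgeR adjusted p = 0.889), and 0.14 without pre-molt 5842, so its sign rested on that library. It was -0.29 without pre-molt 6762 and -0.070 without post-molt 4448. PRDX6, which uses glutathione rather than thioredoxin, was at 199, 259.9, 282 and 319 CPM pre-molt (C497, 5572, 6762 and 5842) and at 172, 208, 242 and 266 post-molt (4448, 5572, 9678 and X410). The groups overlapped over most of their range. The log2 difference was -0.26 ± 0.21 (95% interval -0.71 to 0.20, edgeR adjusted p = 0.743), and -0.13 without pre-molt 5842 and -0.15 without post-molt 4448.

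**Figure D2:**
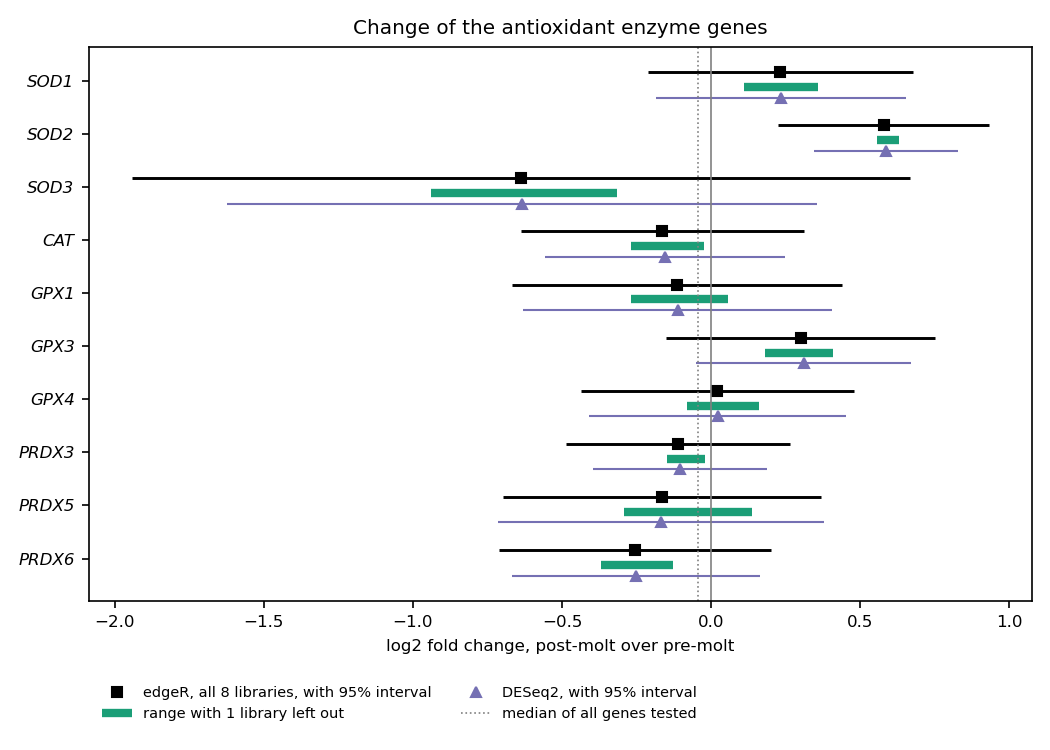
Log2 fold change of each gene, post-molt over pre-molt (x axis): squares are edgeR values with 95% intervals, triangles DESeq2 values with 95% intervals, green bars the range of edgeR values with 1 library left out, and the dotted line the median of all genes tested (-0.04). The edgeR interval of SOD2 (0.22 to 0.93) does not reach 0, those of the other 9 genes do, and that of SOD3 is the widest.

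The precision of these fits bounds what could have been missed. For 9 of the 10 genes the 95% interval lay within 1 log2 unit of 0 on both sides, as it did for 37.6% of all genes tested. SOD3 was the exception. The standard error was under the median of all genes tested (0.36) in 9 of the 10. The share and the median cover genes of all depths, and genes of like depth were not compared.

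Libraries differed in a way that several members shared. Post-molt 4448 had the lowest level of its group in 7 of the 10 genes (SOD2, CAT, GPX1, GPX4, PRDX3, PRDX5 and PRDX6), where it was lowest for 34.4% of all genes tested. Post-molt X410 had the highest in 6 (SOD1, SOD2, GPX3, PRDX3, PRDX5 and PRDX6), where it was highest for 25.4% of all genes. Among the pre-molt libraries, 5842 was highest in SOD1, GPX4, PRDX5 and PRDX6 and lowest in CAT and GPX3. The TMM factor, which divides the counts, was highest in 4448 (1.14) and lowest in 5842 (0.842), and its part in this order was not tested. Genes with a count ran from 12676 in post-molt 9678 to 18044 in post-molt 5572. The study reports low RNA quality in some of its samples, and the part of RNA quality in this order was not tested. In seal 5572, 5 of the 10 were higher and 5 lower post-molt, and the difference of SOD2 was the largest in size.

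Ratios between members inside 1 library need no scaling between libraries. In all, 6 were compared by a two-sided exact permutation test over the 70 divisions of the 8 libraries, for which the smallest p is 0.0286. The reads of SOD2 per read of SOD1 were 1.12 (5842), 1.31 (5572), 1.50 (C497) and 1.72 (6762) pre-molt and 1.48 (X410), 1.63 (5572), 1.92 (4448) and 2.22 (9678) post-molt. The groups overlapped, and the mean log2 ratio differed by 0.36 (exact permutation p = 0.143, 0.429 adjusted over the 6 ratios). The reads of SOD3 per read of SOD1 differed by -0.87 on the log2 scale (exact permutation p = 0.0857, adjusted 0.429). GPX3 over GPX1 differed by 0.35, PRDX3 over PRDX6 by 0.14, GPX4 over GPX1 by 0.09 and CAT over GPX1 by -0.09 (exact permutation p of 0.429 or more). With 1 library left out, GPX3 over GPX1 ran from 0.12 (without pre-molt 5842) to 0.58 (without pre-molt 6762) and PRDX3 over PRDX6 from 0.041 (without pre-molt 5842) to 0.27 (without pre-molt C497). SOD3 over SOD1 was -0.56 without pre-molt C497 and -0.57 without post-molt X410. The pre-molt libraries were spread widely in CAT over GPX1, from 1.20 and 1.57 reads of CAT per read of GPX1 in 5842 and 5572 to 3.38 and 3.60 in 6762 and C497, and the post-molt libraries lay between, at 1.83 to 2.16.

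**Figure D3:**
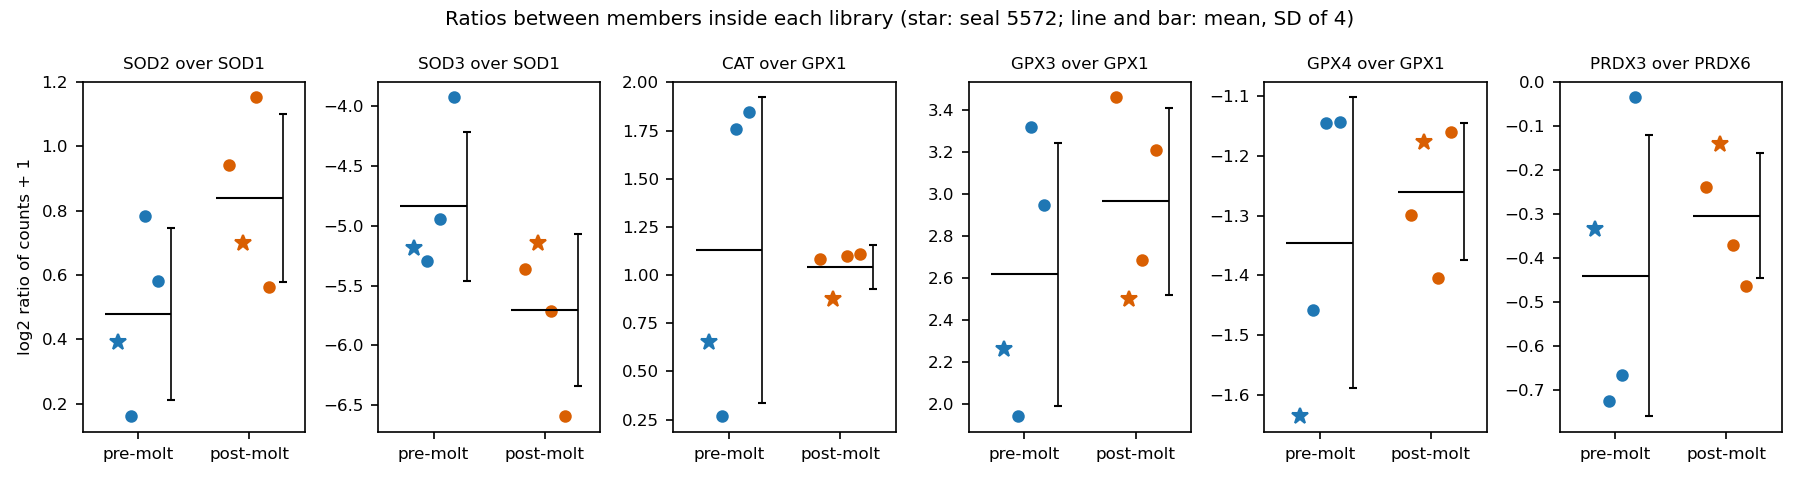
Log2 ratio of the counts (plus 1) of gene pairs in each library (y axes, a different scale for each pair) for 4 pre-molt and 4 post-molt libraries. Dots are libraries, the star is seal 5572, lines are means and bars SD; the groups overlap in all 6 pairs, and CAT over GPX1 is spread over a wider range pre-molt than post-molt.

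The wider peroxide and glutathione network was described through 11 gene lists. Over all of them edgeR called 0 genes at an adjusted p under 0.05, and DESeq2 called 8 of the 133 to which it gave an adjusted p, or 6.02%. This is near its share of all genes, 3.31% higher and 3.13% lower, so the calls are not a result about the lists. The 8 are named here with their edgeR values. Counts of genes higher or lower before adjustment refer to an unadjusted edgeR p under 0.05. Of all genes tested, 5.2% were higher and 6.22% lower on that measure. Where groups are said not to overlap, the post-molt libraries lay all above (4.05% of all genes) or all below (5.11%). Genes named for a low p are likely to show this, so it adds no support. The other members of the peroxiredoxin and glutathione peroxidase families had 6 of 8 genes tested, with 0 at p under 0.05 before adjustment. All 6 edgeR log2 fold changes were negative (median -0.53), where 46.5% of all genes tested had a positive value. PRDX2, abundant in red cells and muscle cytosol, was at 417 to 1055 CPM pre-molt and 299.7 to 551 post-molt (a log2 difference of -0.56 ± 0.31, edgeR adjusted p = 0.556). PRDX4, the peroxiredoxin of the endoplasmic reticulum, had -0.49 ± 0.26 (adjusted p = 0.539). PRDX1, the main cytosolic form with PRDX2, differed by -0.0043 ± 0.20 in edgeR and by 0.0029 ± 0.18 in DESeq2. GPX5 and GPX6 had no read in any library.

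Of 15 genes tested for glutathione synthesis and recycling, 0 were higher and 2 lower before adjustment, and the rate-limiting synthesis gene GCLC had 0.11 ± 0.27 (log2). CHAC1, which splits glutathione, was at 25.8 ± 10.6 CPM pre-molt and 8.57 ± 3.07 post-molt (-1.59 ± 0.36, edgeR adjusted p = 0.0737, DESeq2 adjusted p = 0.00221). Its groups did not overlap, though pre-molt C497 (12.7 CPM) and post-molt X410 (12.3 CPM) nearly met. OPLAH, which recycles 5-oxoproline to glutamate, was at 70.2 ± 18.7 and 41.8 ± 11.9 CPM, again without overlap (-0.75 ± 0.26, edgeR adjusted p = 0.246, DESeq2 0.093). CHAC1 and OPLAH belong to the breakdown and recycling side of the list. The glutathione transferases had 7 genes tested of 19, since 11 symbols were not found in the table, and 1 of the 7, GSTK1, was lower before adjustment, at -0.59 ± 0.23 (edgeR adjusted p = 0.331) followed by GSTO1 at -1.28 ± 0.61 (adjusted p = 0.462).

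In the thioredoxin and glutaredoxin system, which reduces peroxiredoxins, 2 of 15 genes tested were higher and 0 lower before adjustment. TXNIP, an inhibitor of thioredoxin and of glucose uptake, was at 507, 627, 686 and 945 CPM pre-molt (5572, 5842, C497 and 6762) and at 981, 1029, 1271 and 1406 post-molt (X410, 9678, 4448 and 5572). The groups did not overlap (0.76 ± 0.23, edgeR adjusted p = 0.180, DESeq2 adjusted p = 0.0159). NXN, nucleoredoxin, had 0.55 ± 0.22 (adjusted p = 0.352). Thioredoxin reductase 1 (TXNRD1, -0.026 ± 0.26) and its mitochondrial form (TXNRD2, -0.089 ± 0.23) had values near 0, and the symbol TXN was not found.

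NADPH supplies the electrons for both systems, and of 15 genes tested NADK was higher and ALDH1L1 and PGLS, of the pentose phosphate pathway, lower before adjustment. NADK, the kinase that makes NADP from NAD, was at 32.3 ± 7.10 CPM pre-molt and 57.0 ± 8.57 post-molt, without overlap (0.82 ± 0.22, edgeR adjusted p = 0.117, DESeq2 adjusted p = 0.00652). ALDH1L1, a folate enzyme of the cytosol that makes NADPH, was at 559 ± 133 and 268 ± 28.3 CPM, also without overlap (-1.06 ± 0.22, edgeR adjusted p = 0.0546, DESeq2 adjusted p = 7.53e-05). The mitochondrial NADPH sources IDH2 (0.039 ± 0.22) and NNT (-0.088 ± 0.19) had values near 0.

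Selenocysteine sits in the active site of GPX1, GPX3 and GPX4, and its insertion machinery had 12 genes tested, of which 0 were higher and 1 lower before adjustment. That 1 was RPL30, a ribosomal protein that also binds selenoprotein mRNAs (-0.75 ± 0.26, edgeR adjusted p = 0.249), and the next lowest p belonged to NCL, nucleolin (-0.26 ± 0.18, adjusted p = 0.672). Among 15 other selenoproteins tested, 1 was higher and 1 lower on the same measure. SELENOM, of the endoplasmic reticulum, was at 23.9 ± 4.60 and 13.1 ± 2.08 CPM without overlap (-0.87 ± 0.23, edgeR adjusted p = 0.127, DESeq2 adjusted p = 0.0162), and MSRB1, a methionine sulfoxide reductase, had 0.94 ± 0.40 (edgeR adjusted p = 0.383).

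Of 16 genes listed as suppliers of metals to the dismutases 10 were found and tested, with 0 higher and 1 lower before adjustment. The symbols MT1E, MT2A, MT3, SCO1, SCO2 and COX17 were not found. SLC25A3, the mitochondrial carrier of phosphate and copper, was at 1375 ± 546 and 780.3 ± 101 CPM, without overlap (-0.82 ± 0.26, edgeR adjusted p = 0.209, DESeq2 adjusted p = 0.0446), and the copper chaperone ATOX1 was at 5.47 ± 0.825 and 2.77 ± 1.33 CPM (-0.98 ± 0.49, edgeR adjusted p = 0.493). Of 25 genes listed as makers of superoxide or peroxide, 20 were found and 15 tested, and DESeq2 gave 9 of the 15 no adjusted p. The symbols CYBA, CYBB, MAOB, AOX1 and PAOX were not found, so the list is covered in part only. Among the 15, 1 was higher and 0 lower before adjustment. This was XDH, xanthine dehydrogenase, at 47.7 ± 4.75 and 75.0 ± 19.2 CPM (0.65 ± 0.21, edgeR adjusted p = 0.212). NOXO1, an organizer of an NADPH oxidase, had -2.06 ± 1.12 on few reads (edgeR adjusted p = 0.549).

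Of 22 genes tested for peroxisomes, the home of catalase, SCP2 was higher and PEX5 lower before adjustment. SCP2, a peroxisomal thiolase and lipid carrier, was at 135 ± 13.3 and 208 ± 20.4 CPM (0.62 ± 0.17, edgeR adjusted p = 0.146, DESeq2 adjusted p = 0.00133). PEX5, the import receptor for peroxisomal enzymes, was at 72.8 ± 14.7 and 42.2 ± 11.5 CPM (-0.79 ± 0.24, edgeR adjusted p = 0.183, DESeq2 adjusted p = 0.0418). Both had groups without overlap, in opposite directions.

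**Figure D4:**
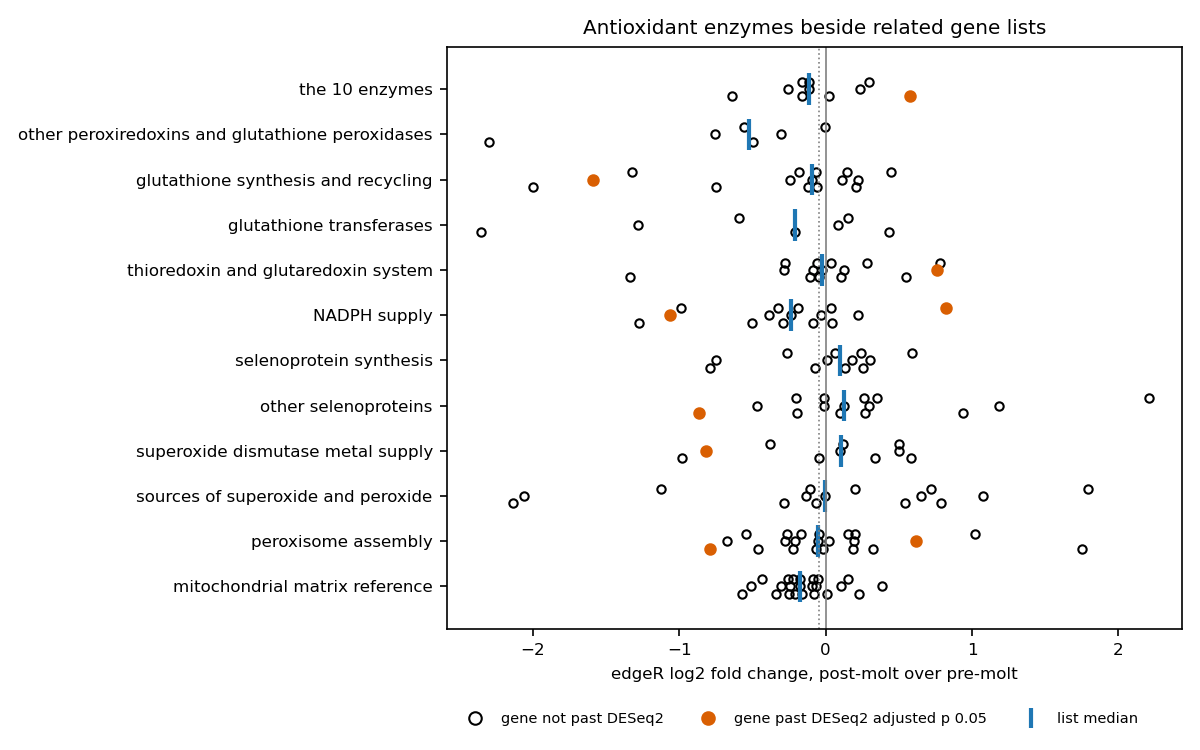
EdgeR log2 fold changes, post-molt over pre-molt (x axis), of single genes (dots) in the 10 antioxidant enzymes and 11 related gene lists (rows). Filled dots passed DESeq2 at an adjusted p under 0.05 (SOD2 and 8 genes of the lists), blue marks are list medians, and the dotted line is the median of all genes tested (-0.04); no gene shown passed edgeR.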

How the data were processed

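RNA-seq of 8 muscle libraries, 4 per group, was analysed. Per the labels and the study's methods, the authors demultiplexed with bcl2fastq 2.20 and aligned read pairs by STAR against the genome of the Hawaiian monk seal, a relative. They deposited raw counts per gene from that aligner. Which strand column was used is not given in the sources used here. Libraries were chosen by the authors for their number of unique reads, 4 per condition. The study gives as its reason that some samples sequenced poorly from RNA of low quality. The methods and labels name different library kits.

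Of 24349 rows, 11 carry a fragment of annotation text in place of a gene name (0.0173 to 0.0259% of a library's counts) and were left out. No column was left unused. No library was a copy of another (28 pairs, chi-square over degrees of freedom at least 105). Genes were kept with filterByExpr of edgeR 4.0.16 (minimum count 10, minimum total count 15), scaled with TMM and compared with the edgeR quasi-likelihood test in R 4.3.3, with Benjamini-Hochberg adjustment over all genes tested and a threshold of 0.05. The SE and 95% intervals come from that fit. DESeq2 1.42.0 and limma 3.58.1 (voom) were alternatives, with other alternatives for scaling, filters and left-out libraries; DESeq2 left 8807 genes without an adjusted p for low counts and 477 without a p. The scripts were tested on simulated data. P-values measure the spread between these seals.

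The members and the gene lists were chosen with earlier results of these data known. Named were all members, in each list the called genes and the 2 others with the lowest p, and of each marker list the most abundant gene. PRDX1, GPX5, GPX6, GCLC, TXNRD1, TXNRD2, IDH2, NNT, SLC4A1, HEMGN, HBQ1, HBM, PGLS, CD68 and the muscle, fat, vessel and fibroblast markers other than the most abundant were named after their values were seen. Gene symbols of all 10 members matched RefSeq genes of the northern elephant seal, none overlapping another annotated gene span there. No sequence or transcript length was used here.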

Additional observations from a re-analysis of the deposited data

Results flagged for a closer look

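In 3 of 20 sets of 4 libraries (10 genes in each group), 1 library lay apart from the rest on the log2 CPM scale, where chance gives about 1 in 20. The measure is the gap to the nearest library over the whole range of the group, and each ratio passed Dixon's 95% critical value for 4 samples. Pre-molt C497 was high in SOD3 (5.27 CPM, gap ratio 0.901). Post-molt 4448 was low in GPX1 (289 CPM, gap ratio 0.912) and in PRDX3 (146 CPM, gap ratio 0.889).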

How the results depend on the processing

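Each of the 10 log2 fold changes was recomputed under 18 alternatives, 180 values in all. Of these 169 kept their direction and side of the threshold. SOD2 in DESeq2 was the 1 that passed it, so that the count of genes called higher went from 0 to 1. The other 10 changed sign, in GPX1, GPX4 and PRDX5. The cause of these differences was not tested. With 1 library left out, GPX1 ran from -0.27 to 0.057, GPX4 from -0.080 to 0.16 and PRDX5 from -0.29 to 0.14. Without both libraries of seal 5572, GPX4 was at -0.0094, and without pre-molt 5842 and post-molt 9678, GPX1 was at 0.020 and PRDX5 at 0.17. Of the ratios, CAT over GPX1 and GPX4 over GPX1 changed sign with 1 library left out (from -0.38 to 0.15 and from -0.011 to 0.15), and GPX4 over GPX1 was at -0.039 without seal 5572. DESeq2 with libraries left out for SOD2 and the fibroblast sum without GSN were chosen after seeing the data. No paired analysis was possible because the groups share only seal 5572. SOD3, with 49 to 314 counts a library, is the gene that depth limits most. Over all genes tested, edgeR called 31 higher and 19 lower, robust edgeR 43 and 31, limma-voom 55 and 39, edgeR with no filter 128 and 97, and DESeq2 335 and 317. With 1 library left out, edgeR called 7 to 28 higher and 2 to 21 lower, and without both libraries of seal 5572 it called 3 and 2. Without pre-molt 5842 and post-molt 9678 edgeR called 0 and 0, where DESeq2 called 190 and 169.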
